A study of Saccharomyces cerevisiae with 12 samples.

Results

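Transcripts of the cytosolic ribosomal proteins were followed in budding yeast, Saccharomyces cerevisiae, grown at 15 °C and at 30 °C. The probe sets were chosen by name alone: the platform's gene symbol had to be RPL (large subunit) or RPS (small subunit), then a number, then A, B or nothing. The rule found 142 of 5900 probe sets, which stand for 122 of 5449 named genes. Of these, 77 probe sets (70 genes) belong to the large subunit and 65 (52 genes) to the small subunit. The RefSeq gene table holds 132 symbols of this pattern, and the other 10 were not analysed here. A probe set whose name ends in _s_at or _x_at is one that the platform marks as matching more than 1 sequence; 29 of the 142 are of that kind and are called shared below, and 9 genes were measured only by a shared probe set. For 47 proteins, both gene copies, A and B, had a probe set of their own that is not shared, and 17 proteins have a symbol without a letter.

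The 4 groups were the industrial wine strain EC1118 at 15 °C and at 30 °C, and the laboratory strain CEN.PK113-7D at 15 °C and at 30 °C, with 3 biological replicates in each and 1 array per culture. All cultures were anaerobic, nitrogen-limited chemostats in minimal medium with anaerobic growth factors, held at a dilution rate of 0.05 per hour, so all groups share a growth rate set by the feed as well as the lack of oxygen and the nitrogen limitation. The labels give no genetic change in either strain. RNA was hybridised to Affymetrix Yeast Genome 2.0 arrays. The measured quantity is the intensity of a probe set on a linear scale, as the authors deposited it.

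A ribosome contains 1 copy of most of its proteins, and yeast cells spend a large share of their transcription on the genes that encode them. These genes are switched together through the nutrient-sensing TOR pathway and transcription factors such as Rap1, Fhl1, Ifh1 and Sfp1, and in most conditions their transcripts follow the growth rate. An ancient duplication of the genome left many ribosomal proteins with a pair of genes whose products are identical or nearly so, often with different introns and untranslated ends, and for several pairs 1 copy is known to be controlled by its own protein product at the level of splicing.

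Ribosomal protein transcripts were among the brightest on the arrays. Of the 142 probe sets, 141 had a mean within the top 25% of all probe sets and 108 within the top 5%. Single values ran between 469 and 5615, none was at the lowest deposited value of 10, and the brightest probe set of an array had 7573 to 8057. The means were highest for RPL10, RPL2A (a shared probe set) and RPS4B (also shared), and lowest for RPL15B, RPL18B and RPL22B (unshared probe sets of both). Levels of different probe sets depend on their probes, so all comparisons below are of 1 probe set, or of 1 ratio of probe sets, between groups. Array medians were 329 to 353 at 15 °C and 356 to 371 at 30 °C. Replicates correlated at 0.975 to 0.994, and replicate 3 of both strains at 15 °C stood apart most from its group. Of 10 genes specific to a cells or to haploid cells, all 10 were bright in CEN.PK113-7D and dim in EC1118 with no overlap, as a check of the strain labels. On an array an intensity is a share of the RNA hybridised, so a change per cell and a change in the other RNA cannot be told apart.

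The comparison of temperatures asks how the ribosomal protein transcripts differ between cold and warm cultures at the same growth rate. In both strains they were mostly higher at 15 °C, by a small amount. In EC1118, 68 of the 142 probe sets rose and 2 fell, where 23.8% of all probe sets rose and 29.1% fell. In CEN.PK113-7D, 82 rose and 3 fell, where 21.6% of all probe sets rose and 35.3% fell. All calls are from limma, two-sided, with Benjamini-Hochberg adjustment over all probe sets and a threshold of 0.05. The median log2 change (15 °C over 30 °C) was 0.12 in EC1118, a 1.09-fold difference, and -0.028 over all probe sets. In CEN.PK113-7D it was 0.18, a 1.14-fold difference, and -0.10 over all probe sets. Relative to the median of all probe sets the shift was 0.15 in EC1118 and 0.29 in CEN.PK113-7D. The 3 replicates at 15 °C did not overlap with the 3 at 30 °C, in either direction, for 99 of the 142 probe sets in EC1118 (69.7%, against 61.6% of all probe sets) and for 97 in CEN.PK113-7D (68.3%, against 61.1%).

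Other bright transcripts had medians on the other side of 0. Among the brightest 25% of probe sets, with the ribosomal proteins left out, the median log2 change was -0.043 in EC1118 and -0.17 in CEN.PK113-7D. Within the ribosomal proteins, the change ran slightly against brightness: across the 142 probe sets, which share the arrays, the correlation of mean log2 intensity with the temperature change was -0.25 in EC1118 and -0.27 in CEN.PK113-7D. The array medians were lower at 15 °C, while the medians of the ribosomal proteins were higher. How the arrays were scaled is not given, and the cause of the shift was not tested. After each array was centred on its median, 90 probe sets rose in EC1118 and 107 in CEN.PK113-7D, with medians of 0.21 and 0.30. Centring also raised the median of all probe sets, to 0.060 and 0.018, so these counts do not show a larger shift relative to them. After cyclic loess, which removes shifts that depend on brightness, 49 rose in EC1118 and 92 in CEN.PK113-7D. The share of all probe sets that rose is not given here for either scaling. With the intensities as deposited, the count in EC1118 was 44 without replicate 2 of EC1118 at 30 °C.

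**Figure D1:**
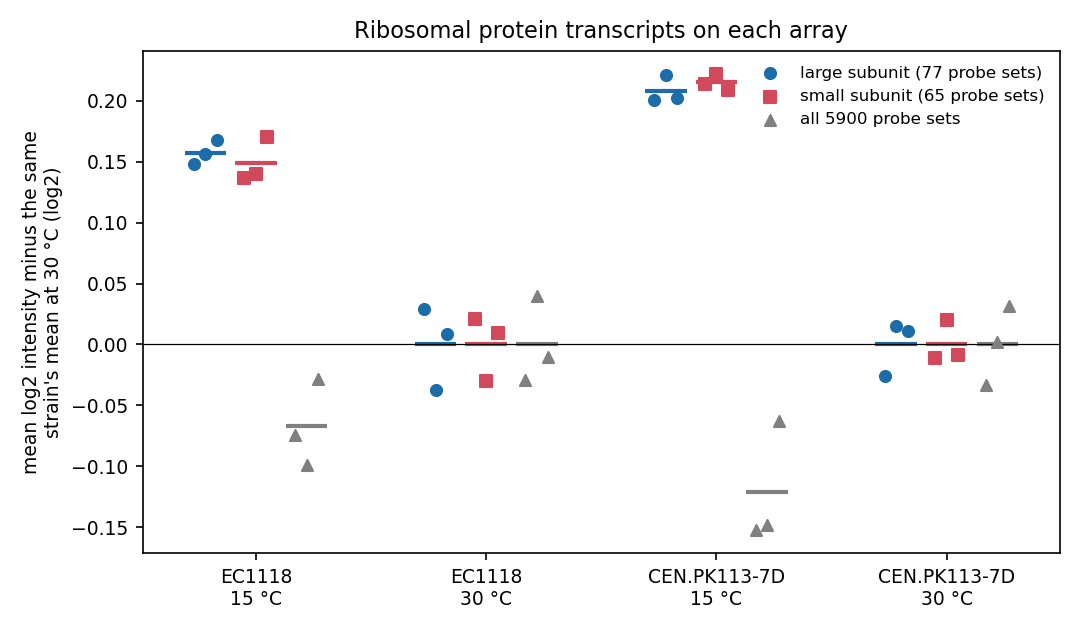
Mean log2 intensity of the large subunit probe sets (circles), the small subunit probe sets (squares) and all probe sets (triangles) on each of the 12 arrays, minus the same strain's mean at 30 °C, in log2 units. Points are arrays and bars are group means; both subunits lie above 0 on every array at 15 °C, and all probe sets together lie below 0 there.

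The large and small subunits had similar medians. In EC1118, 39 of 77 large subunit probe sets rose and 0 fell, and 29 of 65 small subunit probe sets rose and 2 fell, with median log2 changes of 0.13 and 0.11. In CEN.PK113-7D, 45 of 77 rose and 3 fell in the large subunit, against 37 of 65 and 0 in the small subunit, with medians of 0.18 and 0.19. The median of the large subunit minus that of the small subunit was 0.018 in EC1118 and -0.0080 in CEN.PK113-7D, and leaving out single arrays moved it between 0.0022 and 0.024 in EC1118 and between -0.0095 and 0.028 in CEN.PK113-7D. The sign in CEN.PK113-7D therefore depended on single arrays: it was positive without replicate 1, 2 or 3 at 15 °C.

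Of 17 proteins encoded by a single gene, 4 rose in EC1118, which is 23.5% and no more than the 23.8% of all probe sets that rose. In CEN.PK113-7D 10 rose (58.8%, against 21.6% of all), and none fell in either strain. RPL38, a small protein of the large subunit, had 2601, 2684 and 2821 in EC1118 at 15 °C, against 2273, 2035 and 2278 at 30 °C, a log2 change of 0.30 ± 0.057 (adjusted p = 0.00177). In CEN.PK113-7D its change was 0.25 ± 0.057 (adjusted p = 0.00448). RPS20, of the small subunit's head, changed by 0.24 ± 0.07 (adjusted p = 0.0156) in EC1118 and 0.26 ± 0.07 (adjusted p = 0.00920) in CEN.PK113-7D, and RPS2, which lies at the mRNA entry, by 0.17 ± 0.046 (adjusted p = 0.0103) and 0.23 ± 0.046 (adjusted p = 0.00221). RPL3, near the peptidyl transferase centre, was the fourth to rise in EC1118, by 0.11 ± 0.041 (adjusted p = 0.0431), a call lost in 10 of 17 alternatives, and it rose by 0.15 ± 0.041 (adjusted p = 0.0108) in CEN.PK113-7D. RPL30, whose protein blocks the splicing of its own transcript, had 0.0092 and -0.051 and passed in neither strain.

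Shared probe sets had smaller median changes, a difference that was not tested. Of 29 shared probe sets, 9 rose in EC1118 (31.0%, against 23.8% of all probe sets) and 12 in CEN.PK113-7D (41.4%, against 21.6%). Their median log2 changes were 0.079 and 0.11. Of 113 that are not shared, 59 rose (52.2%) and 2 fell in EC1118, and 70 rose (61.9%) and 3 fell in CEN.PK113-7D, with medians of 0.14 and 0.22. In 20 genes a shared and an unshared probe set could be set side by side. Opposite calls between temperatures could not occur there, since no probe set that fell belongs to these genes. RPS8A gave the widest gap of these in EC1118: its own probe set changed by 0.60 ± 0.11 (adjusted p = 0.00143) and its shared one by 0.12 ± 0.036 (adjusted p = 0.0184). For RPL18B in CEN.PK113-7D the values were 0.66 ± 0.12 (adjusted p = 8.65e-04) for its own probe set and 0.27 ± 0.046 (adjusted p = 7.76e-04) for the shared one. A shared probe set can read both copies, so its change is not assigned to 1 gene here.

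**Figure D2:**
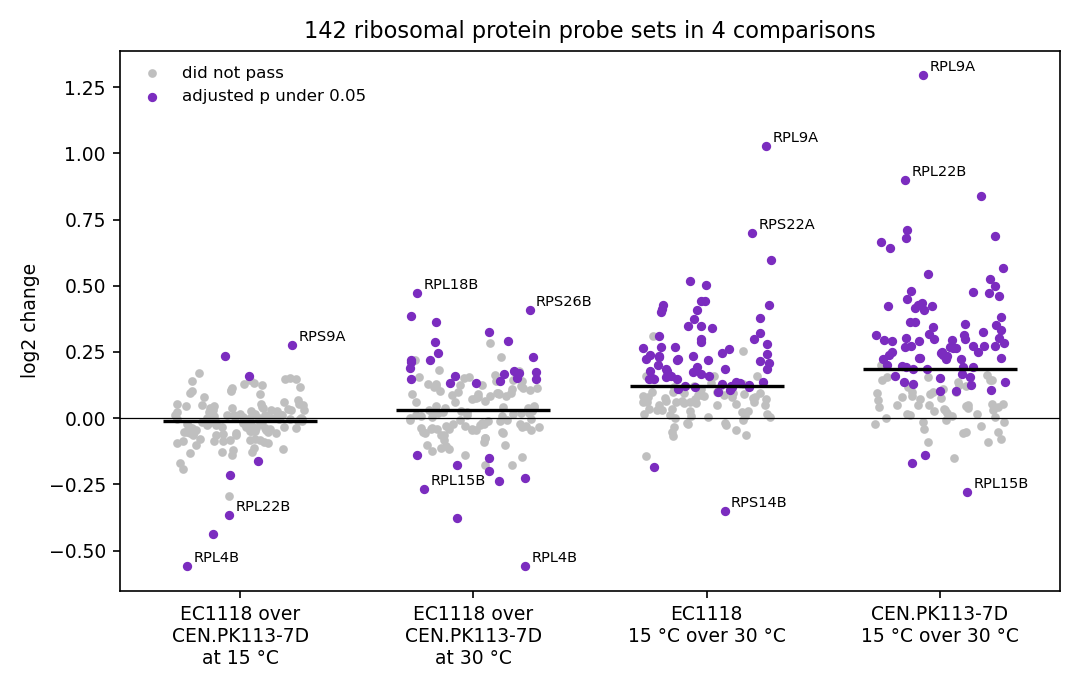
Log2 change of each of the 142 probe sets (points) in 4 comparisons, with the median as a bar; coloured points passed an adjusted p of 0.05. The medians are -0.0097 and 0.032 between strains at 15 °C and 30 °C, and 0.12 and 0.18 between temperatures in EC1118 and CEN.PK113-7D.

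The largest temperature change of any ribosomal protein, in both strains, was that of RPL9A (probe set 1776927_at). RPL9 is a large subunit protein close to the base of the stalk. RPL9A had 1875, 1899.5 and 1767 in EC1118 at 15 °C, against 995, 809 and 921 at 30 °C. In CEN.PK113-7D it had 1961, 2112 and 2155 at 15 °C, against 859.8, 795 and 884 at 30 °C. The temperatures did not overlap in either strain, and the changes were 2.04-fold and 2.45-fold, or 1.03 ± 0.08 (adjusted p = 1.41e-05) and 1.30 ± 0.08 (adjusted p = 2.63e-06) on the log2 scale. It was the 1 probe set of the 142 with a change above 2-fold in each strain. Its paralogue RPL9B had 1467, 1473 and 1379 in EC1118 at 15 °C, against 1435, 1277 and 1418 at 30 °C. In CEN.PK113-7D, RPL9B had 1363, 1379.5 and 1518, against 1372, 1241 and 1338. RPL9B passed in neither strain, with 0.066 (adjusted p = 0.443) and 0.11 (adjusted p = 0.196). The A to B ratio of RPL9 was 1.95 times as high at 15 °C in EC1118 and 2.28 times as high in CEN.PK113-7D.

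RPL9 was 1 of many pairs whose copies did not move together. The log2 ratio of A to B changed with temperature in 22 of 47 pairs in EC1118, 13 toward A and 9 toward B. It changed in 23 of 47 pairs in CEN.PK113-7D, 12 toward A and 11 toward B. Over all probe sets and ratios tested in the same fit, 52.9% passed in EC1118 and 56.9% in CEN.PK113-7D, so the share of pairs that passed (46.8% and 48.9%) was not above the background. The median size of the ratio change was 0.16 on the log2 scale in each strain. Both copies rose in 14 pairs in EC1118 and in 20 in CEN.PK113-7D. Only the A copy passed as higher in 16 pairs in EC1118 and 13 in CEN.PK113-7D, and only the B copy in 11 and 6. These counts do not test a difference between copies, since a copy that did not pass is not shown to be unchanged. Of the A copies 63.8% and of the B copies 53.2% rose in EC1118, where 23.8% of all probe sets rose. In CEN.PK113-7D the shares were 70.2% and 55.3%, where 21.6% rose.

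In 16 pairs the ratio passed in both strains, which is 72.7% of the pairs that passed in EC1118 and 69.6% of those in CEN.PK113-7D, and all 16 had the same direction. The temperature comparisons of the 2 strains share no arrays, but the 4 groups share 1 estimate of the spread, so the calls are not independent. Toward A moved 9 pairs (RPL9, RPL12, RPL13, RPL23, RPL27, RPL33, RPS1, RPS21 and RPS22) and toward B 7 (RPL26, RPL40, RPS9, RPS16, RPS23, RPS24 and RPS26). Of these 16, 11 passed in both strains under every alternative that gave them a value, whichever 1 array was left out included (RPL9, RPL12, RPL26, RPL27, RPS1, RPS9, RPS21, RPS22, RPS23, RPS24 and RPS26), and 5 (RPL13, RPL23, RPL33, RPL40 and RPS16) lost a call in at least 1 strain when a single array was left out. Across the 47 pairs, 35 had the same sign in both strains, and the changes correlated at r = 0.81 (Spearman's rho = 0.76), given as a description since pairs are not independent replicates. Single probe sets other than ribosomal proteins also agreed between the strains, with temperature changes that correlated at r = 0.70. The share of all probe sets that passed in both strains is not given here. Another 6 pairs passed in EC1118 alone, 7 in CEN.PK113-7D alone and 18 in neither. The difference between the strains passed for 1 of 47 ratios, RPS18, which passed in all 21 alternatives that gave it a value. The count ran between 1 and 5 when single arrays were left out, and was 4 after quantile normalization. It was 0 with 1 probe set per gene, which left 33 pairs and gave no RPS18 ratio.

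**Figure D3:**
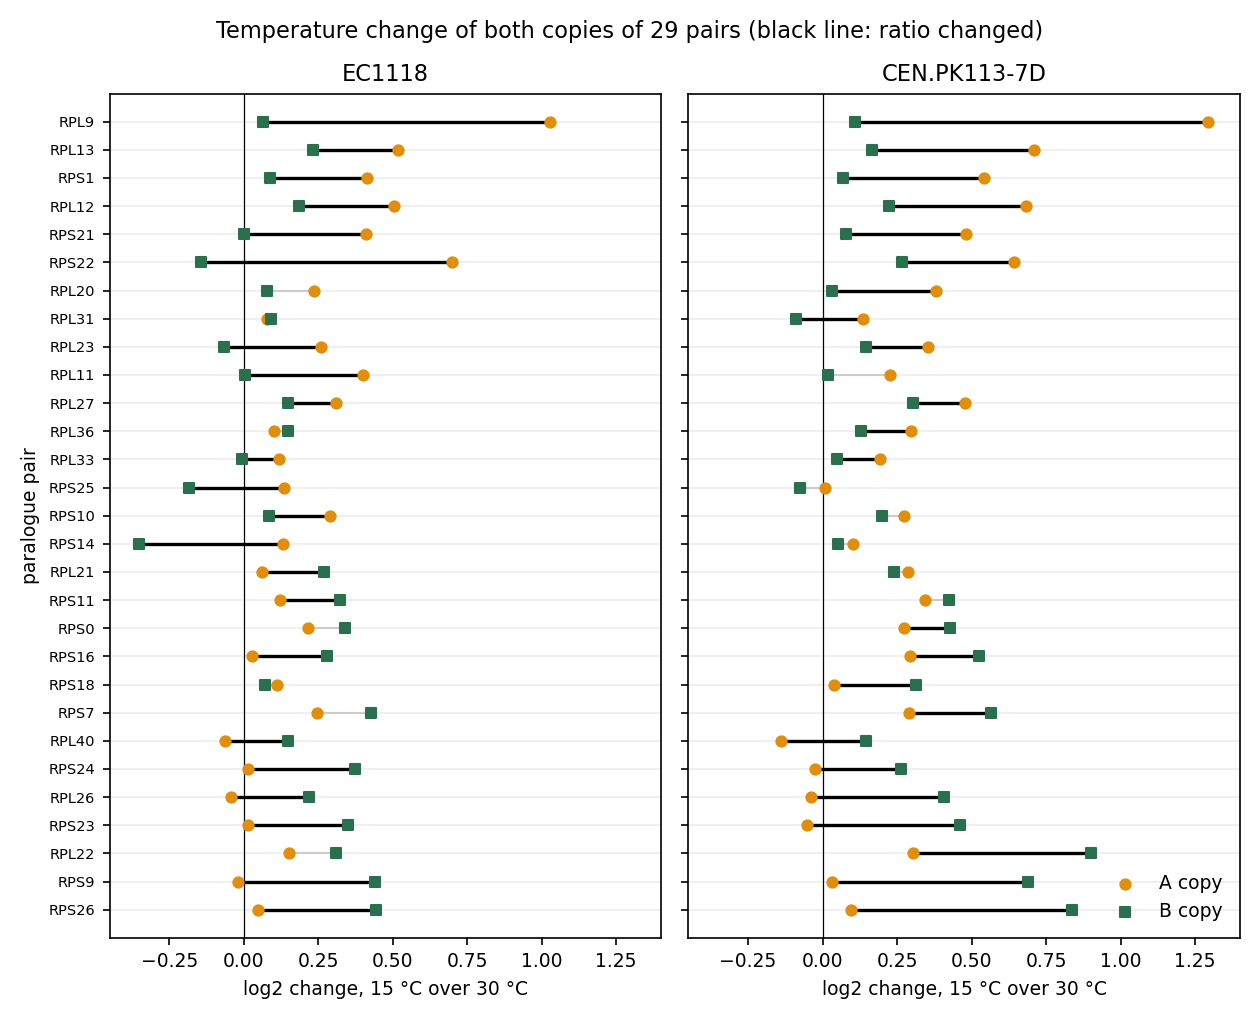
Log2 change with temperature (15 °C over 30 °C) of the A copy (circles) and the B copy (squares) of the 29 pairs whose ratio passed in at least 1 strain, with EC1118 on the left and CEN.PK113-7D on the right; a black line joins copies whose ratio passed an adjusted p of 0.05. RPL9 has the widest gap in both strains, with A at 1.03 and 1.30 and B at 0.066 and 0.11.

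In the 9 pairs that moved toward A, the A copy rose in both strains and by more than the B copy. The rise of RPL33A in EC1118 lost its call in 10 of 17 alternatives, among them the omission of any 1 of the 6 arrays. RPL12, which binds the ribosomal RNA at the base of the stalk, is an example: RPL12A had 2687, 2632 and 2584 in EC1118 at 15 °C, against 1933, 1744 and 1901 at 30 °C. In CEN.PK113-7D it had 2954, 3078 and 3151, against 1897, 1979 and 1851. RPL12A did not overlap between temperatures in either strain, with changes of 0.50 ± 0.053 (adjusted p = 5.59e-05) and 0.68 ± 0.053 (adjusted p = 8.07e-06), while RPL12B rose by 0.19 and 0.22. The ratio moved by 0.32 ± 0.05 (adjusted p = 5.63e-04) in EC1118 and 0.46 ± 0.05 (adjusted p = 5.72e-05) in CEN.PK113-7D. RPL13A, of the large subunit, had 2555, 2405 and 2596 in EC1118 at 15 °C, against 1787, 1704 and 1783 at 30 °C. In CEN.PK113-7D it had 2537, 2482 and 2342, against 1653, 1659.8 and 1228, where the third 30 °C value lay well below the other two. Its changes were 0.52 and 0.71, with 0.23 and 0.17 for RPL13B, all 4 of which passed. The RPL13 ratio moved by 0.29 ± 0.11 (adjusted p = 0.0491) and 0.54 ± 0.11 (adjusted p = 0.00204).

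Small subunit pairs moved toward A as well. RPS22A had 2667, 2659 and 2587 in EC1118 at 15 °C, against 1663, 1497 and 1723 at 30 °C, and 2631, 2585 and 2416 in CEN.PK113-7D at 15 °C, against 1646, 1647 and 1596 at 30 °C. The changes of RPS22A were close in both strains, 0.70 ± 0.059 (adjusted p = 1.86e-05) and 0.64 ± 0.059 (adjusted p = 2.08e-05). RPS22B had 1306, 1475 and 1478 in EC1118 at 15 °C, against 1664, 1385 and 1664 at 30 °C, which overlapped, with a change of -0.14 (adjusted p = 0.248). In CEN.PK113-7D, RPS22B had 1426, 1516 and 1687, against 1198, 1256 and 1391, and rose by 0.27 ± 0.098 (adjusted p = 0.0399), a call lost in 6 of 17 alternatives, 4 of them the omission of a single array. The ratio thus moved by 0.84 ± 0.10 (adjusted p = 1.48e-04) in EC1118 and by 0.37 ± 0.10 (adjusted p = 0.0120) in CEN.PK113-7D, and the strains' difference did not pass (adjusted p = 0.0688). RPS1A, which lies near the mRNA exit, rose by 0.41 and 0.54 while RPS1B had 0.088 and 0.068, neither of which passed. RPS21A had 4204, 4189.6 and 4471 in EC1118 at 15 °C, against 3315, 3199 and 3171 at 30 °C, and 4265, 4351 and 4233 in CEN.PK113-7D at 15 °C, against 2953, 3157 and 3101 at 30 °C. The RPS21 ratio moved by 0.41 ± 0.041 (adjusted p = 4.16e-05) in EC1118 and 0.40 ± 0.041 (adjusted p = 3.73e-05) in CEN.PK113-7D, and RPS21B passed in neither strain. RPL23, RPL27 and RPL33 completed the group, with ratio changes of 0.33, 0.16 and 0.13 in EC1118 and 0.21, 0.17 and 0.15 in CEN.PK113-7D.

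In 6 of the 7 pairs that moved toward B, all but RPL40, the B copy rose in both strains, though RPS24B lost its call in CEN.PK113-7D in 3 of 17 alternatives, each the omission of a single array. RPS26, a protein at the mRNA exit channel, had the largest such shift in CEN.PK113-7D. RPS26B (probe set 1775167_at) had 3184, 3100.2 and 3159 in EC1118 at 15 °C, against 2446, 2331 and 2171 at 30 °C. In CEN.PK113-7D it had 3376, 3297 and 2721, against 1712, 1649 and 1879. No value at 30 °C reached the lowest at 15 °C, and the changes were 0.44 ± 0.087 (adjusted p = 0.00202) and 0.84 ± 0.087 (adjusted p = 4.42e-05), or 1.36-fold and 1.79-fold. RPS26A had 3374, 3589 and 3590.2 in EC1118 at 15 °C, against 3446, 3267 and 3482 at 30 °C, and 3833, 3662 and 3351 in CEN.PK113-7D at 15 °C, against 3313, 3388 and 3439.8 at 30 °C. RPS26A overlapped between temperatures in both strains. The ratio moved by -0.39 ± 0.072 (adjusted p = 0.00144) in EC1118 and -0.74 ± 0.072 (adjusted p = 3.00e-05) in CEN.PK113-7D.

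RPS9, a protein that helps to keep decoding accurate, showed the same form. RPS9B had 3211, 3148 and 3121 in EC1118 at 15 °C, against 2359, 2291 and 2331 at 30 °C. In CEN.PK113-7D it had 3316, 3393 and 3169, against 2068, 2020.4 and 2038. RPS9B rose by 0.44 ± 0.041 (adjusted p = 2.80e-05) in EC1118 and by 0.69 ± 0.041 (adjusted p = 2.13e-06) in CEN.PK113-7D without overlap, and the difference of these rises, EC1118 minus CEN.PK113-7D, was -0.25 ± 0.058 (adjusted p = 0.0227). RPS9A had 1405, 1397 and 1488 in EC1118 at 15 °C, against 1477, 1388 and 1481 at 30 °C. In CEN.PK113-7D, RPS9A had 1124, 1146 and 1279, against 1163, 1173 and 1129.8. RPS9A overlapped between temperatures in both strains, with changes of -0.019 and 0.032. The RPS9 ratio moved by -0.46 ± 0.071 (adjusted p = 5.16e-04) and -0.66 ± 0.071 (adjusted p = 5.52e-05).

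RPS23, another protein of the decoding centre, moved its ratio by -0.34 ± 0.044 (adjusted p = 1.95e-04) in EC1118 and -0.51 ± 0.044 (adjusted p = 1.35e-05) in CEN.PK113-7D. RPS23B had 2853, 2892 and 3006 in EC1118 at 15 °C, against 2465, 2293 and 2123 at 30 °C, and 2961, 2747 and 2778 in CEN.PK113-7D at 15 °C, against 2184, 2068 and 1922 at 30 °C. RPS23A overlapped between temperatures in both strains, with changes of 0.014 and -0.051. RPL26, which lies near the exit of the peptide tunnel, had 0.22 and 0.41 for the B copy, both passing, and -0.043 and -0.04 for the A copy, neither passing. RPS24 and RPS16 moved toward B by -0.36 and -0.25 in EC1118, and by -0.29 and -0.23 in CEN.PK113-7D. RPL40 is made as a fusion to ubiquitin, and its ratio moved by -0.21 ± 0.081 (adjusted p = 0.0488) and -0.28 ± 0.081 (adjusted p = 0.0132). RPL40A fell in CEN.PK113-7D, with a change of -0.14 ± 0.042 (adjusted p = 0.0178), a call lost without replicate 1 at 15 °C or replicate 3 at 30 °C of that strain and under 3 scalings, while RPL40B passed in neither strain.

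RPL22, a protein that is not essential for growth, moved its ratio past the threshold in CEN.PK113-7D. In EC1118, RPL22B had 839, 907 and 809 at 15 °C, against 666, 649.6 and 746 at 30 °C. These values did not overlap, but the change of 0.31 ± 0.12 (adjusted p = 0.0507) did not pass. In CEN.PK113-7D, RPL22B had 1016, 1129.99 and 1152 at 15 °C, against 507, 559 and 718 at 30 °C, a change of 0.90 ± 0.12 (adjusted p = 1.83e-04). RPL22A rose in both strains, by 0.15 in EC1118 and 0.30 in CEN.PK113-7D. The ratio change of -0.16 ± 0.11 (adjusted p = 0.254) in EC1118 did not pass, and that of -0.59 ± 0.11 (adjusted p = 0.00123) in CEN.PK113-7D did. The difference between the strains passed for RPL22B itself, with -0.59 ± 0.17 (adjusted p = 0.0489), a call lost whichever 1 array was left out, except replicate 3 of CEN.PK113-7D at 30 °C, and not for the ratio (adjusted p = 0.0975).

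RPS14 and RPS25 were the pairs with opposite calls for their copies, both in EC1118. The RPS14 protein is known to act on the transcript of its own B copy. RPS14B had 1144, 1206 and 1356 in EC1118 at 15 °C, against 1511, 1513 and 1694 at 30 °C, and fell, with a change of -0.35 ± 0.089 (adjusted p = 0.00846). RPS14A had 3434, 3509 and 3282, against 3159, 3029 and 3146, and rose by 0.13 ± 0.048 (adjusted p = 0.0422), a call lost in 9 of 17 alternatives. In CEN.PK113-7D, RPS14B had 1159, 1271 and 1374 at 15 °C, against 1163, 1319.95 and 1186 at 30 °C, which overlapped. The RPS14 ratio moved by 0.48 ± 0.10 (adjusted p = 0.00318) in EC1118, and by 0.051 ± 0.10 (adjusted p = 0.699) in CEN.PK113-7D, which did not pass; the strains' difference did not pass either (adjusted p = 0.0831). RPS25B had 2183, 2148 and 2126 in EC1118 at 15 °C, against 2495, 2293 and 2548 at 30 °C, a change of -0.18 ± 0.063 (adjusted p = 0.0345) that lost its call in 10 of 17 alternatives. RPS25A rose by 0.14 ± 0.045 (adjusted p = 0.0287), a call lost in 7. RPL11A, part of the particle that carries the smallest ribosomal RNA of the large subunit, rose by 0.40 ± 0.047 (adjusted p = 1.17e-04) in EC1118 and 0.23 ± 0.047 (adjusted p = 0.00271) in CEN.PK113-7D, while RPL11B passed in neither. RPS8A and RPS8B rose together, by 0.60 and 0.43 in EC1118 and by 0.47 and 0.50 in CEN.PK113-7D, and their ratio passed in neither strain.

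**Figure D4:**
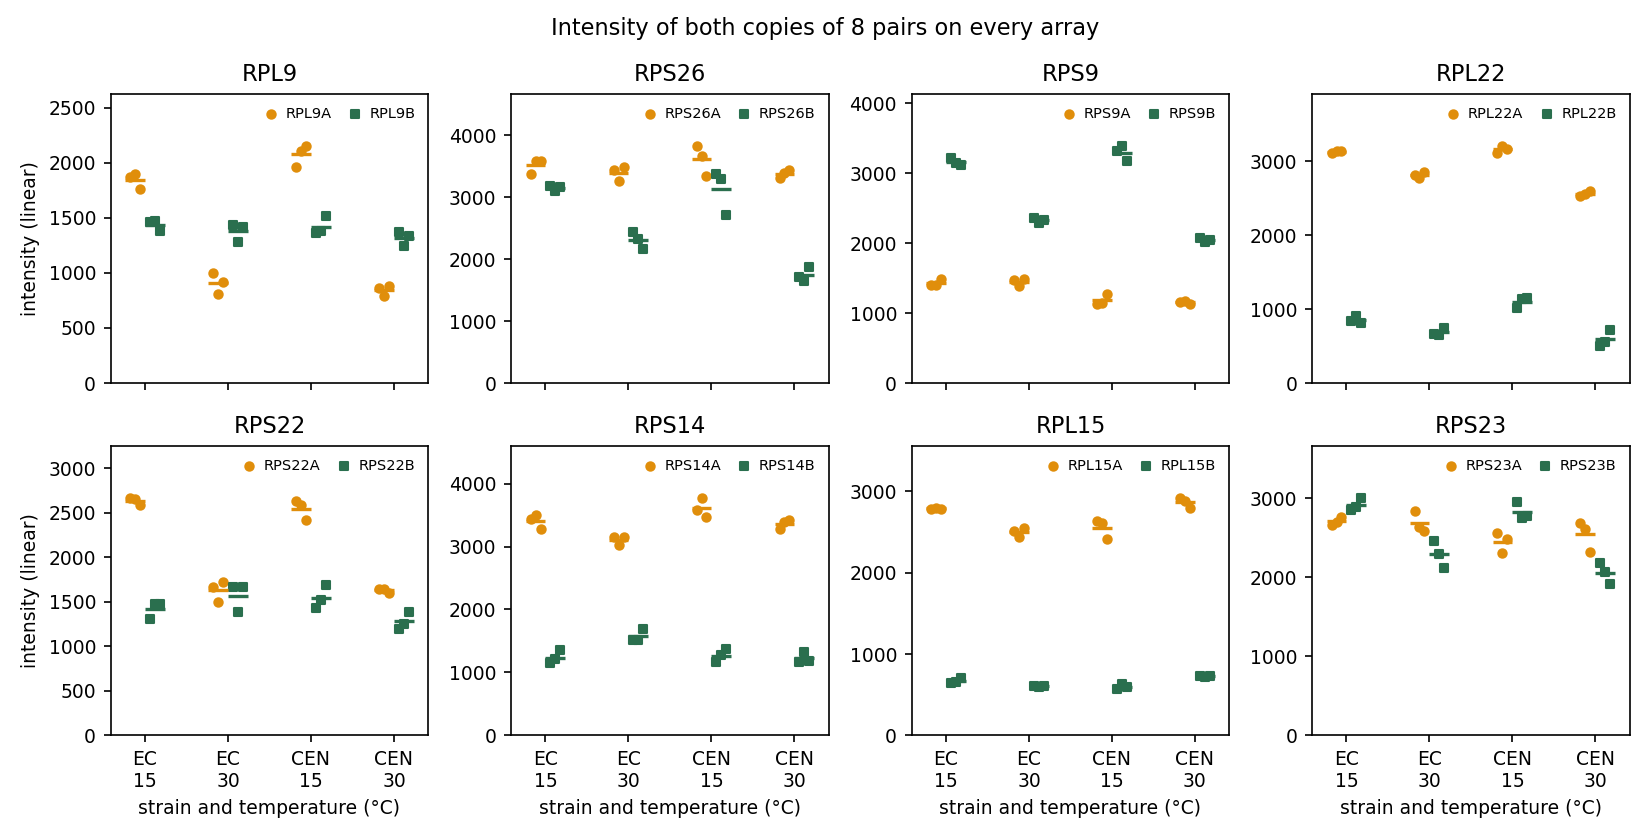
Intensity (linear scale from 0) of the A copy (circles) and B copy (squares) of 8 pairs on every array, in EC1118 (EC) and CEN.PK113-7D (CEN) at 15 °C and 30 °C, with group means as bars. RPL9A lies between 1767 and 2155 on the arrays at 15 °C and between 795 and 995 at 30 °C, while RPL9B overlaps; the heights of 2 probe sets in a panel cannot be set against each other.

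**Figure D5:**
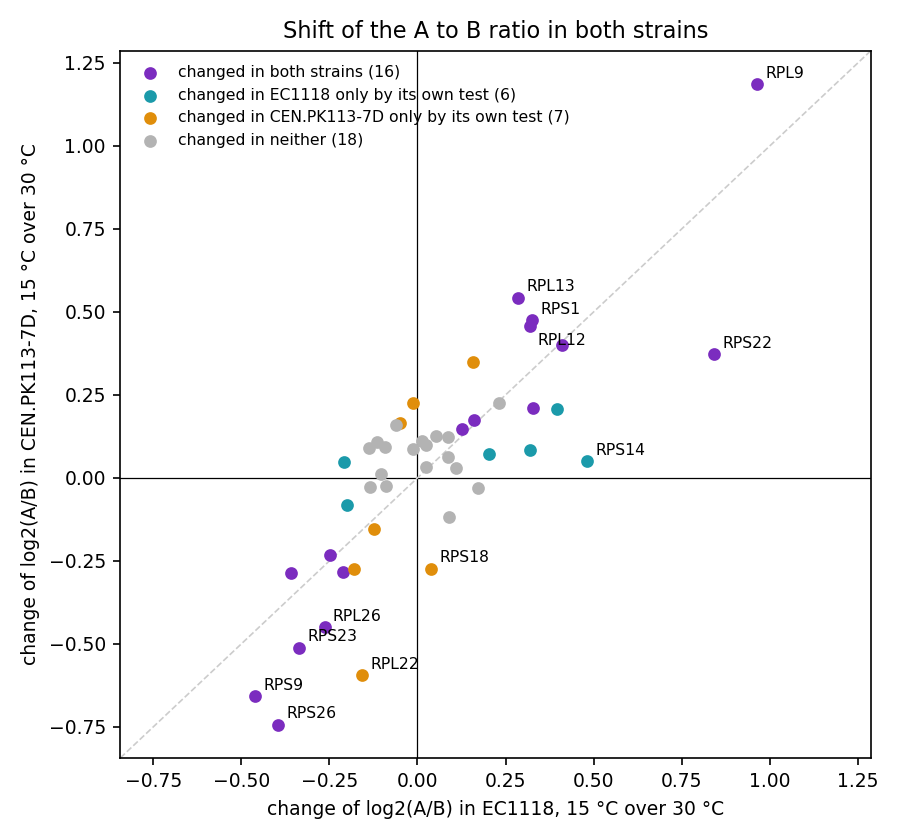
Change of the log2 A to B ratio with temperature in EC1118 (horizontal) and CEN.PK113-7D (vertical) for 47 pairs (points), coloured by the strains in which it passed an adjusted p of 0.05; the dashed line marks equal change. All 16 pairs that passed in both strains lie in the upper right or lower left part, where both changes have the same sign.

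RPL15, a large subunit protein needed early in assembly, was the exception among the ribosomal proteins, with opposite calls in the 2 strains for both of its copies. RPL15A had 2787, 2801 and 2785 in EC1118 at 15 °C, against 2518, 2437 and 2548 at 30 °C. In CEN.PK113-7D it had 2636, 2613 and 2412, against 2919, 2886 and 2800.2. The cold values were all higher in EC1118 and all lower in CEN.PK113-7D, with changes of 0.16 ± 0.046 (adjusted p = 0.0158) and -0.17 ± 0.046 (adjusted p = 0.0109). RPL15B had 649.6, 658 and 701 in EC1118 at 15 °C, against 609, 593 and 613 at 30 °C. In CEN.PK113-7D it had 569, 631 and 601, against 724, 723 and 736. RPL15B changed by 0.15 ± 0.05 (adjusted p = 0.0329) in EC1118 and -0.28 ± 0.05 (adjusted p = 0.00104) in CEN.PK113-7D, so its groups also did not overlap. The difference of the temperature effects was 0.33 ± 0.065 (adjusted p = 0.0120) for RPL15A and 0.43 ± 0.071 (adjusted p = 0.00552) for RPL15B. The difference of RPL15B passed in all 22 alternatives; that of RPL15A was lost under the 3 other scalings, where its adjusted p reached 0.101. The fall of RPL15B in CEN.PK113-7D did not pass under quantile or cyclic loess normalization. That of RPL15A did not pass under those, under median centring or in the fit of the 2 groups alone. Both changes stayed negative. The rises of both copies in EC1118 were not followed through the alternatives.

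The other differences between the strains' temperature effects that passed were negative, with a smaller change in EC1118. Over the 142 probe sets the difference (EC1118 minus CEN.PK113-7D) passed for 9, 2 positive and 7 negative, which is 6.34%, where 12.8% of all probe sets passed, 8.44% positive and 4.36% negative. The negative ones were RPL22B, RPS9B, RPS18B, RPL8A, RPL21A, RPS13 and RPL36A, with values between -0.59 and -0.19. RPS13, a single-copy gene, had 4942, 4807 and 4829 in EC1118 at 15 °C, against 4524, 4498 and 4629 at 30 °C. In CEN.PK113-7D it had 4966, 5148 and 5011, against 4032, 4115 and 4014, with changes of 0.095 ± 0.038 (adjusted p = 0.0590) and 0.31 ± 0.038 (adjusted p = 1.03e-04) and a difference of -0.22 ± 0.054 (adjusted p = 0.0266). RPS18, a protein of the small subunit's head, was the 1 pair whose ratio change differed between strains, by 0.31 ± 0.068 (adjusted p = 0.0170): RPS18B had 2943, 2839 and 2789 in EC1118 at 15 °C, against 2769, 2652 and 2727 at 30 °C, and 3101, 3125 and 3074 in CEN.PK113-7D at 15 °C, against 2393, 2609 and 2492 at 30 °C. RPS18B, RPL8A and RPL21A also had a shared probe set, which can read both copies. In CEN.PK113-7D these shared probe sets changed by -0.013, 0.24 and 0.016, against 0.31, 0.45 and 0.29 for the unshared ones. In EC1118 they changed by 0.051, 0.20 and 0.023, against 0.073, 0.22 and 0.062. The strains' difference passed for 0 of the 29 shared probe sets. Across the 142 probe sets, the signed difference was below 0 for 95 and above 0 for 47, where it was above 0 for 3224 of all 5900. The median difference was -0.052, against 0.032 over all probe sets. Of the probe sets that rose, 59 did so in both strains, which is 86.8% of those in EC1118 and 72.0% of those in CEN.PK113-7D. The matching share over all probe sets is not given here, so this overlap is not read as particular to the ribosomal proteins. Temperature changes of the 142 correlated between the strains at r = 0.79, against 0.70 for the other probe sets. The count of negative differences was 2 after median centring, 11 after quantile normalization and 15 after cyclic loess, with 1 positive each, and it ran between 1 and 7 when single arrays were left out. For these settings the shares of all probe sets are not given here.

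The comparison of strains at each temperature asks how the wine strain differs from the laboratory strain. Whether the probes match the sequences of both strains equally was not tested. A difference in match and one in transcript level therefore cannot be told apart, for single probe sets or for ratios. At 15 °C the ribosomal proteins differed little: 3 of 142 probe sets were higher and 5 lower in EC1118, which is 5.63%, where 32.4% of all probe sets passed (18.5% higher and 13.9% lower). The groups did not overlap for 36 (25.4%, against 44.4% of all). The log2 differences of the middle 50% of the 142 spanned 0.082, against 0.41 for all probe sets. At 30 °C, 24 were higher and 9 lower in EC1118, which is 23.2%, where 40.3% passed (20.4% higher and 19.9% lower). The groups did not overlap for 66 (46.5%, against 54% of all), and the middle 50% of the differences spanned 0.17, against 0.48 for all. The median difference was -0.0097 at 15 °C and 0.032 at 30 °C. The split at 15 °C was 1 higher and 6 lower after median centring, and that at 30 °C was 46 higher and 3 lower after quantile normalization and 28 higher and 5 lower after cyclic loess. Quantile normalization also moved the median difference of all probe sets at 30 °C, from 0.0073 to 0.052. The shares of all probe sets that passed under these scalings are not given here, so the counts are not set against them. At 30 °C 14 were higher without replicate 1 and 15 without replicate 3 of EC1118.

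RPL4B was lower in EC1118 at both temperatures. RPL4 lines the peptide tunnel. RPL4B had 1006, 1153 and 1219.6 in EC1118 at 15 °C, against 1489, 1620.2 and 1868 in CEN.PK113-7D, and 964, 946 and 1115 in EC1118 at 30 °C, against 1337, 1554 and 1564 in CEN.PK113-7D. The strains did not overlap, with differences of -0.56 ± 0.11 (adjusted p = 0.00427) at 15 °C and -0.56 ± 0.11 (adjusted p = 0.00310) at 30 °C, the widest of the 142 at each temperature. The shared probe set named for RPL4A had 0.011 and 0.09 and passed at neither.

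RPS9A was higher in EC1118 at both temperatures, by 0.28 ± 0.058 (adjusted p = 0.00586) at 15 °C and 0.33 ± 0.058 (adjusted p = 0.00174) at 30 °C, from the values given above, which did not overlap between strains. Further calls at 15 °C included RPL14B and RPL15B, higher by 0.24 and 0.16, and RPL22B, RPL12A and RPL21A, with -0.37, -0.22 and -0.16. Replicates with the same number deviated together between the strains at 15 °C, and with the replicate number as a block RPL14B did not pass (adjusted p = 0.0507). RPL14B lost its call in 10 of 16 alternatives in all, among them 3 scalings and the omission of 4 single arrays, with an adjusted p of up to 0.191. RPL22B did not pass when 1 of these arrays was left out: replicates 2 and 3 of CEN.PK113-7D or replicates 1, 2 and 3 of EC1118 at 15 °C (adjusted p up to 0.215). RPL15B did not pass in 12 of 17 alternatives. RPL4B and RPS9A passed in all alternatives at both temperatures.

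The probe sets furthest above CEN.PK113-7D in EC1118 at 30 °C were those of RPL18B, RPS26B and RPS16A. RPL18B had 788, 723 and 754 in EC1118 at 30 °C, against 469, 591 and 581 in CEN.PK113-7D, a difference of 0.47 ± 0.12 (adjusted p = 0.00926). RPS26B, from the values above, differed by 0.41 ± 0.087 (adjusted p = 0.00454), and RPS16A by 0.39 ± 0.064 (adjusted p = 0.00105). RPS14B had the difference 0.36 ± 0.089 (adjusted p = 0.00965) and RPS22B 0.29 ± 0.098 (adjusted p = 0.0384), and the call of RPS22B was lost in 5 of 17 alternatives. Among the lower ones, RPL15B had -0.27, RPL39, a small protein of the peptide tunnel, -0.24, RPL11A -0.23 and RPL15A -0.20. These 4 had adjusted p-values of 0.00229, 0.0107, 0.00420 and 0.00720. The comparisons at 30 °C use the same arrays as the temperature comparisons, so they are not independent of them.

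Ratios of the copies differed between strains in 8 of 47 pairs at 15 °C (where 32.3% passed over all probe sets and ratios) and in 11 at 30 °C (40.2%). The RPL27 ratio passed at both temperatures, though its calls were lost in 12 of 17 alternatives at 15 °C and 11 of 17 at 30 °C. At 15 °C the RPL22 and RPS9 ratios were higher in EC1118 by 0.35 ± 0.11 (adjusted p = 0.0356) and 0.33 ± 0.071 (adjusted p = 0.00599), and those of RPL14, RPL12 and RPL9 had -0.23, -0.22 and -0.19. RPL16 had 0.20 and RPL27 -0.14. The call was lost in 5 of 17 alternatives for the RPL22 ratio, 7 of 16 for RPL14, 8 of 17 for RPL16, 2 of 17 for RPL9 and 1 of 17 for RPL12. At 30 °C, RPS14, RPS26 and RPL11 had -0.47 ± 0.10 (adjusted p = 0.00479), -0.40 ± 0.072 (adjusted p = 0.00189) and -0.37 ± 0.086 (adjusted p = 0.00685), and RPL36 had 0.31 ± 0.051 (adjusted p = 0.00108). RPS22, RPS7 and RPS25 had -0.30, -0.27 and -0.21, each of which lost its call in 5 of 17 alternatives. At 15 °C the count was 4 without replicate 2 or 3 of CEN.PK113-7D and 5 without replicate 1 or 2 of EC1118, and at 30 °C it was 7 without any 1 of the 3 replicates of EC1118.

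Other genes of the ribosome were listed for comparison, with the same test, in which 23.8% of all probe sets rose and 29.1% fell in EC1118 and 21.6% rose and 35.3% fell in CEN.PK113-7D. Lists this short give coarse shares. Of 5 stalk proteins, 2 rose at 15 °C in EC1118 and 4 in CEN.PK113-7D, with none falling, where the median of the list was 0.16 and 0.25. RPP2A changed by 0.38 (adjusted p = 6.10e-04) in EC1118 and 0.38 (adjusted p = 5.22e-04) in CEN.PK113-7D, and RPP2B by 0.27 (adjusted p = 0.00165) and 0.32 (adjusted p = 4.85e-04). Of the ribosome-bound proteins ASC1 and STM1, STM1 rose in both strains, by 0.28 (adjusted p = 0.00263) and 0.20 (adjusted p = 0.0157), and ASC1 in CEN.PK113-7D, by 0.27 (adjusted p = 0.00175). Of 15 chaperones of ribosomal and nascent proteins, 8 rose and 1 fell in EC1118 and 9 rose and 1 fell in CEN.PK113-7D, with list medians of 0.28 and 0.17. TSR2, the chaperone of the RPS26 protein, rose by 0.78 (adjusted p = 2.48e-04) and 0.81 (adjusted p = 1.70e-04). SYO1, which escorts the RPL5 and RPL11 proteins, rose by 0.30 (adjusted p = 0.0418) and 0.9995 (adjusted p = 6.52e-05), and ACL4, which binds the RPL4 protein, by 0.45 (adjusted p = 0.00274) and 0.62 (adjusted p = 3.52e-04). NAP1, a histone chaperone kept in the list, fell, with changes of -0.43 (adjusted p = 3.86e-04) and -0.55 (adjusted p = 7.84e-05).

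Of 11 listed regulators of ribosomal protein genes, 0 rose and 8 fell in EC1118 (where 29.1% of all probe sets fell), and 1 rose and 7 fell in CEN.PK113-7D (where 35.3% fell). The list medians were -0.48 and -0.46, against -0.028 and -0.10 over all probe sets. The kinase genes TOR1 and TOR2 changed by -1.04 (adjusted p = 2.16e-05) and -0.79 (adjusted p = 1.74e-05) in EC1118 and by -0.81 (adjusted p = 7.15e-05) and -0.64 (adjusted p = 3.75e-05) in CEN.PK113-7D. ABF1, a general transcription factor that binds some ribosomal protein promoters, changed by -0.63 (adjusted p = 4.78e-05) and -0.63 (adjusted p = 3.68e-05). CRF1, a corepressor of these genes, had 35.6 ± 4.69 in EC1118 at 15 °C, against 78.0 ± 24.7 at 30 °C (SD, n = 3 each), a change of -1.10 (adjusted p = 9.63e-04). In CEN.PK113-7D, 2 of its 3 values at 15 °C were at the floor of 10, so that it had 10.6 ± 1.08 there, against 58.8 ± 1.66 at 30 °C (SD, n = 3 each), a fitted change of -2.47 (adjusted p = 7.51e-06) that depends on the floor. HMO1, which binds ribosomal protein promoters, had a change of -0.068 (adjusted p = 0.516) in EC1118 and was the 1 regulator that rose, by 0.49 (adjusted p = 7.02e-04) in CEN.PK113-7D. Of 11 elongation factors 9 were measured, and 1 rose and 3 fell in EC1118, against 1 and 2 in CEN.PK113-7D, so the falls were close to or below the shares of all probe sets (29.1% and 35.3%). TEF4 rose by 0.64 (adjusted p = 0.00147) and 0.72 (adjusted p = 6.27e-04), and CAM1, which like TEF4 encodes a gamma subunit of the elongation exchange factor, fell, with changes of -0.38 (adjusted p = 0.00706) and -0.35 (adjusted p = 0.00919).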

How the data were processed

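RNA of 12 chemostat cultures, 3 in each of 4 groups, was hybridised to Affymetrix Yeast Genome 2.0 arrays; per the labels' protocols, cultures were sampled into the cold within seconds and a kit was used for the RNA. The authors deposited 1 linear intensity per probe set and array, with a lowest value of 10; how probes were summarised and arrays scaled is not given in the sources used here. Precision is limited by the number of arrays. Names came from the platform's annotation, in which 5498 of 5900 probe sets had 1 gene and 402 were unnamed; 12 symbols, none of them of a ribosomal protein chosen here, were updated through the RefSeq table. No 2 arrays held identical values.

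A limma model (version 3.58.1, lmFit and eBayes, under R 4.3.3) with 1 coefficient per group was fitted to log2 intensities of all 12 arrays, with 8 residual and 1.65 prior degrees of freedom, and p-values were adjusted over the 5900 probe sets. Errors after ± are limma standard errors unless given as SD. The log2 ratios of 47 pairs, from probe sets that are not shared, joined the table in a second fit of 5947 features. The fits were tested on simulated data. The comparisons were temperature in each strain, strain at either temperature, and the strains' difference in the temperature effect.

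The members, lists and tests were chosen with earlier results of these data known. Named were, per comparison, the 6 highest and 6 lowest members that passed, up to 8 pairs with the largest ratio change, members with opposite calls in the strains, genes with several probe sets, the 3 brightest and 3 dimmest members, and up to 4 genes of smallest adjusted p per list. RPL23, RPL26, RPL27, RPL33, RPL40, RPS16, RPS25A, RPS8B, RPL38, RPS20, RPS2, RPL3, RPL30, HMO1 and NAP1 were added after their values were seen.

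The alternatives tried were the replicate number as a block, 2 groups fitted alone, median centring, quantile and cyclic loess normalization, a filter on the dimmest 25% of probe sets, a pseudocount of 50, trend and robust options, 1 probe set per gene, omission of shared probe sets, and omission of every array singly. The omission of replicate 3 of both strains at 15 °C was chosen after seeing the data. Replicate numbers paired the samples, with a correlation of deviations over 0.1 in each of 3 pairs, only between the strains at 15 °C (0.397, 0.283 and 0.273); this pairing rests on the data, since the labels state none. A planned search of promoters for the Rap1 core motif was not run here. Some genes are not reported here.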

Additional observations from a re-analysis of the deposited data

Results flagged for a closer look

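The strains' temperature effects (15 °C over 30 °C) differed, by limma's test of the difference itself, for 9 probe sets and 1 ratio. All values here are log2 differences, EC1118 minus CEN.PK113-7D.

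RPL15B had 0.43 and RPL15A 0.33, with the opposite direction of change in the 2 strains. The difference of RPL15B passed in all 22 alternatives, and that of RPL15A in all but median centring, quantile and cyclic loess normalization.

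RPL22B had -0.59, RPS9B -0.25, RPS18B -0.24, RPL8A -0.23, RPL21A -0.22, RPS13 -0.22 and RPL36A -0.19. Each of these 7 is an unshared probe set and had a positive change in both strains, smaller in EC1118. The difference passed for 0 of the 29 shared probe sets. RPS9B lost its call in 5 of 22, among them the omission of replicate 2 of CEN.PK113-7D at 30 °C, of replicate 2 of EC1118 at 15 °C and of replicate 3 of EC1118 at 30 °C, with an adjusted p of up to 0.0722. RPS13 and RPL21A lost theirs in 8 alternatives each, RPL22B in 12, RPL36A in 13, RPS18B in 14 of 21 and RPL8A in 16 of 22, with adjusted p-values of up to 0.0767, 0.0875, 0.139, 0.0992, 0.0822 and 0.112 in that order. For these 6 the omission of single arrays was among the alternatives that did so: 6 arrays each for RPS13 and RPL21A, 11 for RPL22B, 10 each for RPL36A and RPS18B and 12 for RPL8A.

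The A to B ratio of RPS18 had 0.31: it moved toward B in the cold in CEN.PK113-7D (-0.27), and in EC1118 its change of 0.038 did not pass.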

How the results depend on the processing

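Of 179 results for single probe sets and ratios, 114 kept their call and direction in every alternative, 65 lost the call at least once (55 of them when a single array was left out) and 0 reversed; the cause of these losses was not tested. Of the summary values, 340 stayed close to the value reported and 110 moved. Counts under the alternatives are given without the shares of all probe sets that passed there. The 82 probe sets that rose in CEN.PK113-7D and the 68 in EC1118 were mostly the same genes without the 2 arrays that stand apart: 74 and 55 of them still rose.

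With the replicate number as a block, the count that fell in EC1118 was 1 and the ratios that differed in the temperature effect were 2; the block moved no other count by over 1.5 times. In the fit of 2 groups alone, 1 fell in CEN.PK113-7D, and at 15 °C 1 was higher between strains with 5 ratios.

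Medians and subunit values are on the log2 scale. Median centring gave a median of 0.30 with 1 lower in CEN.PK113-7D and 0.21 with 1 lower in EC1118. It gave 1 higher and a median of -0.040 between strains at 15 °C, and 1 positive, 2 negative and a median of -0.083 for the difference of temperature effects. It moved the median of all probe sets in CEN.PK113-7D to 0.018, where it was -0.10 before. Quantile normalization gave 0 lower, a median of 0.28 and a large minus small subunit value of -0.000556 in CEN.PK113-7D, and 1 lower and 0.17 in EC1118. Between strains it gave 1 higher at 15 °C and 46 higher, 3 lower and 0.081 at 30 °C. For the difference it gave 1 positive, 11 negative, a median of -0.10 and 4 ratios. Cyclic loess gave 0 lower, 0.24 and a subunit value of 0.0038 in CEN.PK113-7D, and 1 lower in EC1118. Between strains it gave 1 higher and -0.047 at 15 °C and 5 lower and 0.066 at 30 °C. For the difference it gave 1 positive, 15 negative, a median of -0.13 and a subunit value of 0.0017.

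The filter on dim probe sets gave 1 negative difference. The pseudocount gave 5 higher between strains at 15 °C and 3 ratios for the difference. Trend and robust options gave 37 higher at 30 °C and 13 negative differences. With 1 probe set per gene, the median was 0.17 and the subunit value 0.015 in CEN.PK113-7D, 7 ratios differed at 30 °C and 0 for the difference, with 33 pairs left. Without shared probe sets, the median was 0.22 and the subunit value -0.058 in CEN.PK113-7D, 0.060 and -0.051 between strains at 30 °C, and the subunit value of the difference was 0.023. Without the 2 arrays that stand apart, the subunit value was 0.028 in CEN.PK113-7D and 0.027 for the difference, 1 fell in EC1118, and at 15 °C 1 was higher with 4 ratios, with 3 ratios for the difference.

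Leaving out single arrays gave 44 to 55 higher, 1 to 2 lower and subunit values of 0.0022 to 0.024 for temperature in EC1118. In CEN.PK113-7D the median ran between 0.17 and 0.20 and the subunit value between -0.0095 and 0.028. Between strains at 15 °C, 1 to 3 were higher, 4 to 6 ratios passed and the subunit value was -0.022 to -0.0061. At 30 °C, 14 to 26 were higher, 7 to 11 ratios passed and the subunit value was -0.032 to -0.0033. For the difference, 1 to 7 were negative, 1 to 5 ratios passed, the median was -0.072 to -0.038 and the subunit value -0.015 to 0.017. No member was at the floor of 10 on any array (lowest value 469). A change that did not pass is not shown to be absent.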
